A study of Homo sapiens with 60 samples.

Results

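Transcriptomes of HT29 cells treated with a Bupleuri Radix extract were set against those of cells treated with an Aconiti Lateralis Radix Preparata extract, each at the highest dose used for that herb. The contrast rests on 6 of the 60 libraries of the series, chosen by extract and dose: 3 for Bupleuri at 310 µg/mL and 3 for Aconiti at 500 µg/mL, all from library set 13. The 12 other libraries of the set hold the lower doses, 12.4 and 62 µg/mL of Bupleuri and 20 and 100 µg/mL of Aconiti, and 3 vehicle libraries come from a set of their own. All cells were exposed for 24 h, and both extracts were made with 70% ethanol. Vehicle cells received DMSO, given as 0.1% in the sample labels and as 2% in the series design. By the study's design, the top dose was 500 µg/mL, or the concentration that inhibited growth by 20% where this was lower, so the extracts were not compared at the same concentration. By this rule 310 µg/mL was the concentration of Bupleuri that inhibited growth by 20%, whereas Aconiti stood at the cap of 500 µg/mL. Extract, concentration and degree of growth inhibition therefore cannot be told apart in the direct contrast. The same holds for extract and growth inhibition where the changes from low to high dose are compared. The labels do not say that the 3 libraries of a group came from separate cultures, so the p-values measure the spread between these libraries, which may be technical.

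HT29 is an established human colorectal adenocarcinoma line that can take on features of absorptive and goblet cells. Bupleuri Radix is the dried root of Bupleurum and is known for triterpenoid saponins, the saikosaponins. Aconiti Lateralis Radix Preparata is the processed lateral root of Aconitum carmichaelii and is known for diterpenoid alkaloids, of which aconitine acts on voltage-gated sodium channels. Cells meet foreign and reactive compounds with a few well-studied programmes. Electrophiles release the transcription factor NRF2 from its inhibitor KEAP1, after which NRF2 switches on antioxidant and detoxifying genes. Amino acid shortage, unfolded protein in the endoplasmic reticulum and other insults converge on translation of ATF4, which drives amino acid transport and synthesis genes and, with its partner CHOP, stress and growth-arrest genes.

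Library totals in set 13 and vehicle ranged from 20.1 to 36.7 M expected counts (M, mega), and from 21.6 to 29.5 M in the 6 high-dose libraries. A count of 3 corresponded to 0.082 to 0.15 counts per M (CPM). None of the 11 colorectal epithelium markers was at 0 in any of these groups, and their summed level was 12579 to 13181 CPM with high-dose Bupleuri and 10646 to 11303 CPM with high-dose Aconiti. The summed fibroblast markers ran from 2.29 to 2.37 CPM with high-dose Bupleuri and from 2.11 to 3.16 CPM with high-dose Aconiti, the endothelial ones from 2.21 to 2.62 and from 2.21 to 2.65 CPM, while the leukocyte ones, which include genes that epithelia also express, ran from 1789 to 1990 and from 1882 to 1916 CPM. The leukocyte antigens PTPRC and CD3E did not reach 0.05 CPM in any library of the fit. No pair of replicates agreed within sampling noise, so each library was counted once. Vehicle replicate 1 lay farthest from its own group, and the comparisons with vehicle are given with and without it.

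At high dose 4875 of 15490 tested genes differed between Bupleuri and Aconiti cells (31.5%), 2566 higher with Bupleuri (16.6%) and 2309 lower (14.9%), by edgeR's quasi-likelihood test at an adjusted p under 0.05. Most differences were small: 218 genes were at least 1.5-fold higher with Bupleuri and 642 at least 1.5-fold lower, and at 2-fold the counts were 67 and 176. Among expressed genes with a mean of at least 1 on the log2 CPM scale, the largest rises were led by DUSP5, CHAC1, SLC38A4, PKIB and GDF15. The largest falls were led by SLC5A9, NOX1, CD200, SPEG and CGNL1.

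DUSP5 encodes a nuclear phosphatase that inactivates ERK (ENSG00000138166, chr10:110497838-110511544, GRCh38). It stood at 15.8, 13.1 and 13.8 CPM in the high-dose Bupleuri libraries, against 3.47, 4.02 and 4.39 CPM in the high-dose Aconiti libraries. The groups did not overlap, and the Aconiti values lay close to the vehicle mean of 4.33 ± 0.38 CPM (SD, n = 3). The log2 difference was 1.83 ± 0.10 (SE), a 3.56-fold higher level with Bupleuri (edgeR adjusted p = 1.3e-11).

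CHAC1, an enzyme that degrades glutathione and a target of ATF4 and CHOP (ENSG00000128965, chr15:40952962-40956519), measured 8.22, 8.5 and 7.96 CPM with Bupleuri, against 2.39, 2.61 and 2.37 CPM with Aconiti. GDF15, a secreted stress cytokine, measured 129, 109 and 119 CPM with Bupleuri, against 36.9, 47.1 and 44.7 CPM with Aconiti. Neither gene overlapped between the extracts, and their log2 differences were 1.74 ± 0.12 and 1.47 ± 0.07 (SE). SLC38A4, a sodium-coupled amino acid transporter, averaged 8.34 ± 0.80 CPM with Bupleuri and 2.77 ± 0.17 CPM with Aconiti (SD, n = 3 each), and the long non-coding RNA UCA1 averaged 65.5 ± 6.2 and 25.7 ± 1.7 CPM in the same order of extracts.

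NOX1, the catalytic subunit of the colon's superoxide-producing NADPH oxidase (ENSG00000007952, chrX:100843324-100874345), measured 5.96, 6.95 and 6.45 CPM with high-dose Bupleuri, against 22.3, 23.8 and 22.5 CPM with high-dose Aconiti. Every Bupleuri library was far below every Aconiti library, and the vehicle mean was 19.1 ± 1.0 CPM (SD, n = 3). The log2 difference was -1.82 ± 0.07 (SE), so the Bupleuri level was 0.283 times that of Aconiti (edgeR adjusted p = 7.5e-14). NOXO1, which organises the same oxidase, measured 8.36, 8.38 and 8.58 CPM with Bupleuri, against 17, 17.5 and 16.1 CPM with Aconiti, and also stood apart. CD200, a surface glycoprotein that restrains myeloid cells, averaged 3.14 ± 0.39 CPM with Bupleuri and 9.73 ± 0.63 CPM with Aconiti (SD, n = 3 each). SLC5A9, a sodium-coupled sugar transporter expressed at a low level here, had 0.452, 0.491 and 0.699 CPM with Bupleuri, against 2.8, 2.18 and 2.24 CPM with Aconiti.

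**Figure D1:**
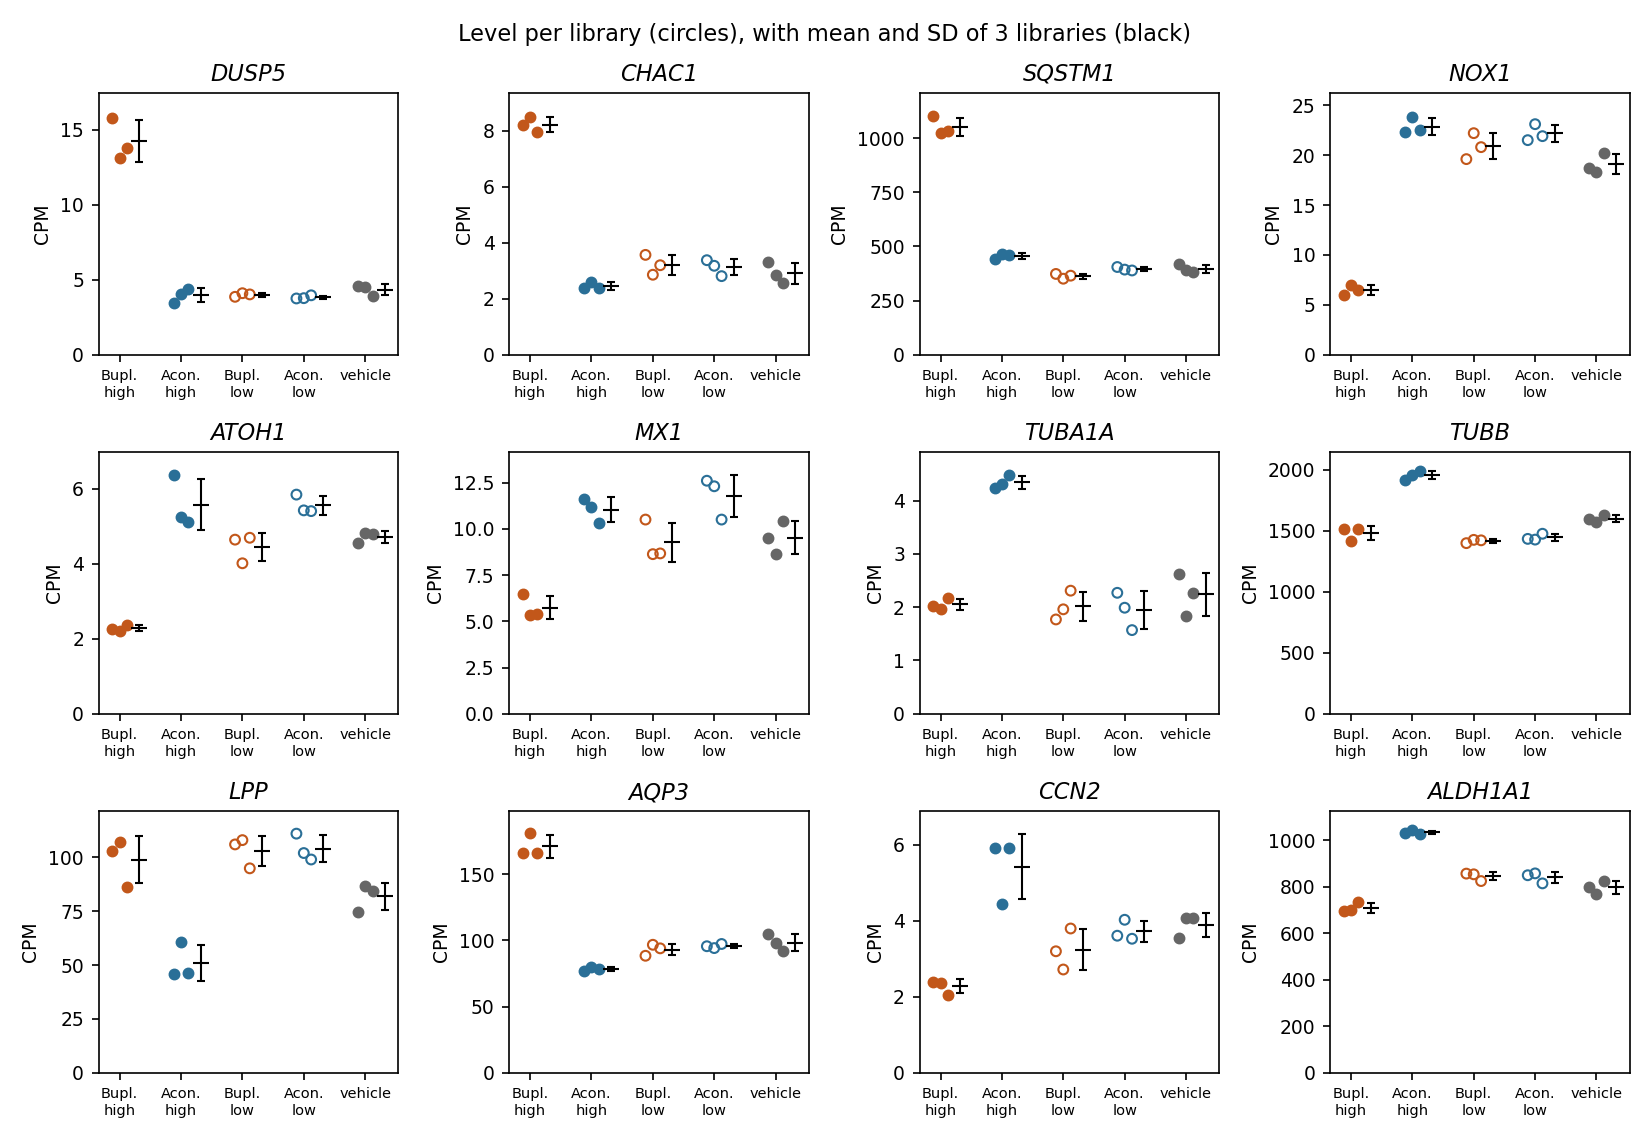
Level of 12 genes in CPM (y axis, from 0) in each library. Filled orange circles are high-dose Bupleuri, filled blue circles high-dose Aconiti, open circles the low dose of each extract and grey circles vehicle, with the mean and SD of 3 libraries in black. DUSP5, CHAC1 and SQSTM1 are high in the Bupleuri high-dose libraries, NOX1, ATOH1 and MX1 are low there, and TUBA1A, TUBB and LPP are set apart in the Aconiti high-dose libraries.

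To ask which extract moved each gene, the high dose was also set against the low dose of the same extract. These changes share no library between the extracts, and at low dose no gene differed between Bupleuri and Aconiti in edgeR, where 424 genes had an unadjusted p under 0.05, 53 passed with no filter on low counts and DESeq2 called 1. From low to high dose 3217 genes changed with Bupleuri (20.8%), of which 1696 rose (10.9%) and 1521 fell (9.82%). With Aconiti 759 genes changed (4.9%), 178 up (1.15%) and 581 down (3.75%). The difference between the dose changes passed the test for 2322 genes (15%), more positive with Bupleuri for 1317 (8.5%) and more negative for 1005 (6.49%).

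A gene was taken as moved by an extract only where its own dose change passed, that of the other extract did not, and the difference between the dose changes passed too. By this rule 1591 genes were moved by Bupleuri only (10.3%), 837 up (5.4%) and 754 down (4.87%), and 272 by Aconiti only (1.76%), 39 up (0.252%) and 233 down (1.5%). A further 101 genes passed in opposite directions (0.652%) and 179 in the same direction (1.16%). The 280 genes called for both extracts made up 8.7% of those called for Bupleuri and 36.9% of those called for Aconiti. For 1346 genes called with Bupleuri alone and 207 called with Aconiti alone, the difference between the extracts did not pass, and they were left unclassed. The Aconiti counts varied as single libraries were left out, which also makes the group of that library smaller. From low to high dose 424 genes were called without Aconiti high replicate 1, 419 without high replicate 3 and 493 without low replicate 1. The count was 1157 without vehicle replicate 1, although vehicle is not part of this contrast and only shares the fit with it. Genes moved by Aconiti only then numbered 154 and 166 without high replicates 1 and 3, and 423 without vehicle replicate 1.

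**Figure D2:**
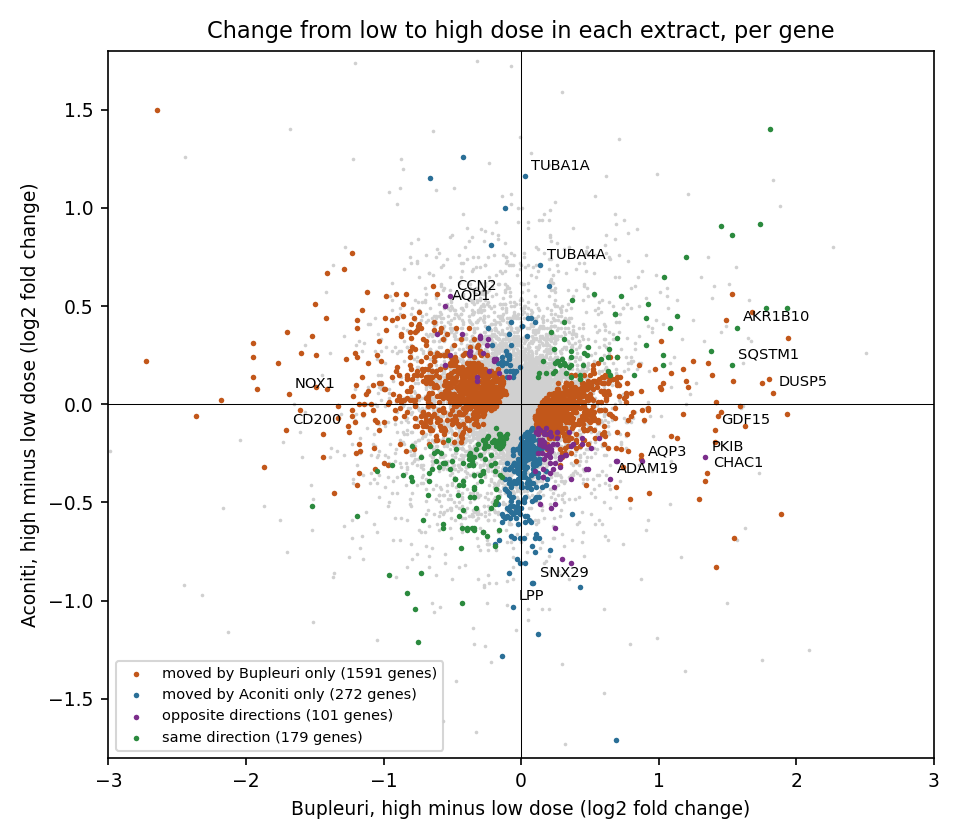
Log2 fold change from low to high dose for each tested gene with Bupleuri (x axis) and Aconiti (y axis). Coloured points mark the 1591 genes moved by Bupleuri only, 272 by Aconiti only, 101 in opposite directions and 179 in the same direction, grey points the other genes, and 44 genes, 2 of them coloured, lie outside the axes. The orange points spread along the Bupleuri axis in both directions, while the blue points lie mostly below 0 on the Aconiti axis.

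NRF2 targets rose with both extracts, and for 23 of 30 the rise was larger with Bupleuri by the test of the difference. Of the 30 tested, 28 rose and none fell from low to high Bupleuri, with a median log2 change of 0.64, against -0.01 over all tested genes. With Aconiti 21 rose and none fell, with a median of 0.23, against 0.01 over all tested genes. Between the extracts at high dose, 26 were higher with Bupleuri and 1, the heme transporter SLC48A1, was lower, with a median log2 difference of 0.38. Over all tested genes 10.9% rose with Bupleuri, 1.15% rose with Aconiti and 16.6% were higher with Bupleuri at high dose. The dose change was more positive with Bupleuri for 8.5% of all.

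SQSTM1, the autophagy receptor p62 that also binds KEAP1 (ENSG00000161011, chr5:179806398-179838078), measured 1100, 1022 and 1033 CPM with high-dose Bupleuri, against 442, 466 and 459 CPM with high-dose Aconiti. The low-dose means were 363 ± 11 CPM with Bupleuri and 396 ± 8.7 CPM with Aconiti (SD, n = 3 each). Both extracts thus gave levels above their own low dose, with log2 changes of 1.53 ± 0.04 and 0.20 ± 0.04 (SE) for Bupleuri and Aconiti. AKR1B10, an aldo-keto reductase, measured 289, 271 and 280 CPM with Bupleuri, against 117, 123 and 122 CPM with Aconiti, without overlap. HMOX1, which breaks down heme, had the closer values of 29.3, 24.4 and 28.3 CPM with Bupleuri, against 17.9, 19.6 and 19.9 CPM with Aconiti.

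The gap between the extracts varied among members. AKR1C2, a hydroxysteroid dehydrogenase, had log2 dose changes of 1.81 with Bupleuri and 1.40 with Aconiti, whose difference of 0.41 ± 0.10 (SE) passed (edgeR adjusted p = 0.0066), although reads of AKR1C1, AKR1C2 and AKR1C3 may be shared between these near-identical genes. GPX2, the gastrointestinal glutathione peroxidase, averaged 760 ± 29 CPM with high-dose Bupleuri and 738 ± 19 CPM with high-dose Aconiti (SD, n = 3 each), overlapped between the extracts and did not differ past the threshold (log2 difference 0.04 ± 0.05 SE, edgeR adjusted p = 0.5). SLC7A11, the cystine importer that serves glutathione synthesis and is also an ATF4 target, moved with Bupleuri only, with log2 changes of 1.20 ± 0.06 with Bupleuri and 0.12 ± 0.06 with Aconiti (SE).

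NRF2 binds the antioxidant response element, whose core reads TGACNNNGC. Promoter stretches of 4 NRF2 targets are shown because their genes rose with both extracts and hold this core before a RefSeq start (GRCh38.p14). A gene can have several starts, and the 250 bases before each were searched, 35116 windows in all. The first listed start with a match is shown, and other starts of the gene may lack the core. Each is printed 5′ to 3′ on the strand of its gene with the core, on either strand, in capitals, and where the bases overlap an annotated exon they are cut to 30.
GCLM: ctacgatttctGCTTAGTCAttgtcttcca
TXNRD1: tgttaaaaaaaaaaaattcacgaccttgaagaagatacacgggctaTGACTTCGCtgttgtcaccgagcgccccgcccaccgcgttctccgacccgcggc
GPX2: gacctgtttttGCTAAGTCAtcctggggat
ME1: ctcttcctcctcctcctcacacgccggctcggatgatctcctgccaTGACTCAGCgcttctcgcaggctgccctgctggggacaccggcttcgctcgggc
They lie at chr1:93909446-93909475 (minus strand), chr12:104215634-104215733 (plus strand), chr14:64942849-64942878 (minus strand) and chr6:83431135-83431234 (minus strand). In ME1 the core overlaps TGACTCA, the element of AP-1 factors. The core was found on either strand before any start of 6 of the 22 NRF2 targets with a promoter entry (27.3%). The share was 13.2% of all 27305 genes with one, so a match is a description and not a binding site. GCLM, the modifier subunit of glutamate-cysteine ligase, averaged 130 ± 4.6 CPM with high-dose Bupleuri and 102 ± 0.87 CPM with high-dose Aconiti, against low-dose means of 68.7 ± 1.7 and 71.6 ± 3.5 CPM (SD, n = 3 each). TXNRD1, cytosolic thioredoxin reductase, measured 639, 638 and 608 CPM with Bupleuri and 383, 398 and 384 CPM with Aconiti. ME1, the cytosolic malic enzyme that yields NADPH, averaged 125 ± 2.8 CPM with Bupleuri and 105 ± 1.5 CPM with Aconiti (SD, n = 3 each).

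The aryl hydrocarbon receptor, AHR, is a ligand-activated factor that induces xenobiotic-metabolising enzymes. Of 8 tested AHR targets, 7 rose with Bupleuri and 2 with Aconiti from low to high dose, and 7 were higher with Bupleuri at high dose. The shares over all tested genes were 10.9%, 1.15% and 16.6% in the same order. CYP1A1, its classical target, had 2.08, 2.45 and 2.37 CPM with high-dose Bupleuri and 1.31, 0.641 and 0.626 CPM with high-dose Aconiti, against means of 0.246 ± 0.13 and 0.362 ± 0.097 CPM at low dose (SD, n = 3 each). It was low in every group, and its log2 change was 3.25 ± 0.34 with Bupleuri and 1.20 ± 0.37 with Aconiti (SE), and the Aconiti change was not past the threshold (edgeR adjusted p = 0.064).

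Stress genes of the ATF4 and CHOP pathway moved with Bupleuri and hardly with Aconiti. Of 28 tested, 21 rose and none fell between low and high Bupleuri, and the median log2 change was 0.45. With Aconiti none rose and 1, DDIT4, fell, with a median of 0.01, and none passed without Aconiti high replicate 2 or 3 or low replicate 1. The difference between the dose changes passed for 17, all larger with Bupleuri. At high dose 23 of the 28 were higher with Bupleuri and none lower. Over all tested genes 10.9% rose with Bupleuri, 8.5% had the more positive dose change with it, and 16.6% were higher at high dose. With Aconiti 1.15% of all rose and 3.75% fell, so the list's Aconiti counts were near the shares of all genes.

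DDIT3, which encodes CHOP, measured 15.2, 11.9 and 12.4 CPM with high-dose Bupleuri, against 5.5, 5.08 and 6.13 CPM with high-dose Aconiti. ATF3, an early stress factor, measured 8.13, 6.71 and 6.8 CPM with Bupleuri, against 2.66, 2.61 and 3.46 CPM with Aconiti. Neither overlapped between the extracts, and in each the Aconiti level lay near that of the low doses. TRIB3, a pseudokinase induced by CHOP, averaged 78.0 ± 1.6 CPM with Bupleuri and 46.0 ± 1.5 CPM with Aconiti (SD, n = 3 each). The asparagine synthetase gene ASNS measured 87, 78.9 and 85.9 CPM with Bupleuri and 59.4, 60.1 and 63 CPM with Aconiti, and the mRNA of ATF4 itself differed by 0.31 on the log2 scale.

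ATF4 binds composite elements with a C/EBP partner, searched here as TGATGNAA on either strand. Sites of 3 genes from this list are shown because CHAC1, ATF3 and ASNS were moved by Bupleuri only. They are again printed 5′ to 3′ on the gene's strand with the match in capitals. The 250 bases before each RefSeq start were searched, and the first listed start with a match is shown.
CHAC1: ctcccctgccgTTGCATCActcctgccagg
ATF3: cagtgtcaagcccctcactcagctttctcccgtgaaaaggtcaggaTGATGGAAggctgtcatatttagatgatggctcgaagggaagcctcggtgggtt
ASNS: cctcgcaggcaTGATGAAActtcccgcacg
They lie at chr15:40953251-40953280 (plus strand), chr1:212565170-212565269 (plus strand) and chr7:97872458-97872487 (minus strand). The CHAC1 stretch is before the RefSeq start used but inside the GENCODE span of the gene given above, which starts farther upstream. A match was found before any start of 4 of the 23 list genes with a promoter entry (17.4%) and of 3.89% of all genes with one. For the other list genes these letters were only absent from these windows.

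Chaperone genes followed the same split. Of 22 genes for chaperones and quality control of the endoplasmic reticulum, 14 rose with Bupleuri from low to high dose and none fell, whereas with Aconiti none rose and 1, the stress sensor ATF6, fell (2 were called without Aconiti high replicate 2 and 4 without vehicle replicate 1). At high dose 19 of the 22 were higher with Bupleuri, with a median log2 difference of 0.27. Over all tested genes 10.9% rose with Bupleuri and 16.6% were higher with it at high dose. With Aconiti 1.15% of all rose and 3.75% fell, so the list's Aconiti counts were near the shares of all genes. HSPA5, the reticulum's main HSP70, measured 562, 533 and 540 CPM with Bupleuri, against 368, 369 and 376 CPM with Aconiti. HERPUD1, which acts in reticulum-associated degradation, measured 60.2, 55 and 57 CPM with Bupleuri, against 36.1, 38.7 and 36.4 CPM with Aconiti. The 15 tested heat shock genes gave 12 rises with Bupleuri, in sizes such as a log2 change of 0.38 ± 0.03 (SE) for the co-chaperone HSPH1. They gave no call with Aconiti in edgeR (1 in DESeq2), which was near the 4.9% of all tested genes that changed.

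Lysosome and autophagy genes gave 22 rises and no fall among 31 with Bupleuri, and 2 rises with Aconiti, of which 1 was left without any of its 6 libraries in turn, with median log2 changes of 0.31 and 0.06. Over all tested genes 10.9% rose with Bupleuri and 1.15% with Aconiti. RRAGC, a GTPase that recruits mTORC1 to lysosomes, measured 59.4, 58.5 and 55.1 CPM with high-dose Bupleuri, against 35.4, 38 and 37.4 CPM with high-dose Aconiti. FNIP1, which partners folliculin in the same signalling, measured 75.2, 73.7 and 72 CPM with Bupleuri, against 45.4, 47.2 and 44 CPM with Aconiti. NEU1, the lysosomal sialidase, and NPC1, the lysosomal cholesterol exporter, differed by 0.57 and 0.53 on the log2 scale.

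ERK feedback and immediate early genes were higher with Bupleuri for 16 of 25 and lower for none at high dose. From low to high dose 14 rose and 1, SPRY2, fell with Bupleuri, while none rose and 3 fell with Aconiti, a count that was 0 without Aconiti high replicate 3 and 1 without high replicate 1 or any of the low-dose replicates. Over all tested genes 16.6% were higher with Bupleuri at high dose and 14.9% lower. From low to high dose 10.9% of all rose and 9.82% fell with Bupleuri, and 1.15% rose and 3.75% fell with Aconiti. FOSL1, an AP-1 subunit, measured 42.8, 36.6 and 41.9 CPM with Bupleuri, against 19.7, 20.5 and 22.3 CPM with Aconiti. HBEGF and EREG, ligands of the EGF receptor family, had log2 differences of 0.75 ± 0.10 and 0.68 ± 0.05 (SE). Several readouts of ERK signalling did not pass in any of these contrasts, among them SPRY4, ETV4 and ETV5, whose log2 differences at high dose were 0.08, -0.03 and 0.01.

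Glucose uptake and glycolysis genes were higher with Bupleuri for 12 of 21 and lower for 3 at high dose. Of all tested genes 16.6% were higher and 14.9% lower, so the share lower was near that of all. No member changed with Aconiti from low to high dose in edgeR, where 2 did without vehicle replicate 1 and DESeq2 called 1. As 4.9% of all tested genes changed there, the lack of calls was near the share of all. The glucose transporter SLC2A1 measured 715, 678 and 692 CPM with high-dose Bupleuri, against 484, 492 and 477 CPM with high-dose Aconiti. TXNIP, which restrains glucose uptake, went the other way, with 37.4, 39.5 and 40.5 CPM with Bupleuri, against 63.9, 58.4 and 61.5 CPM with Aconiti. In fatty acid oxidation and PPAR targets, 9 of 18 were higher with Bupleuri and 1 lower, with PLIN2, a lipid droplet coat protein, at 19, 18.4 and 17.1 CPM with Bupleuri, against 10.7, 8.07 and 9.99 CPM with Aconiti.

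**Figure D3:**
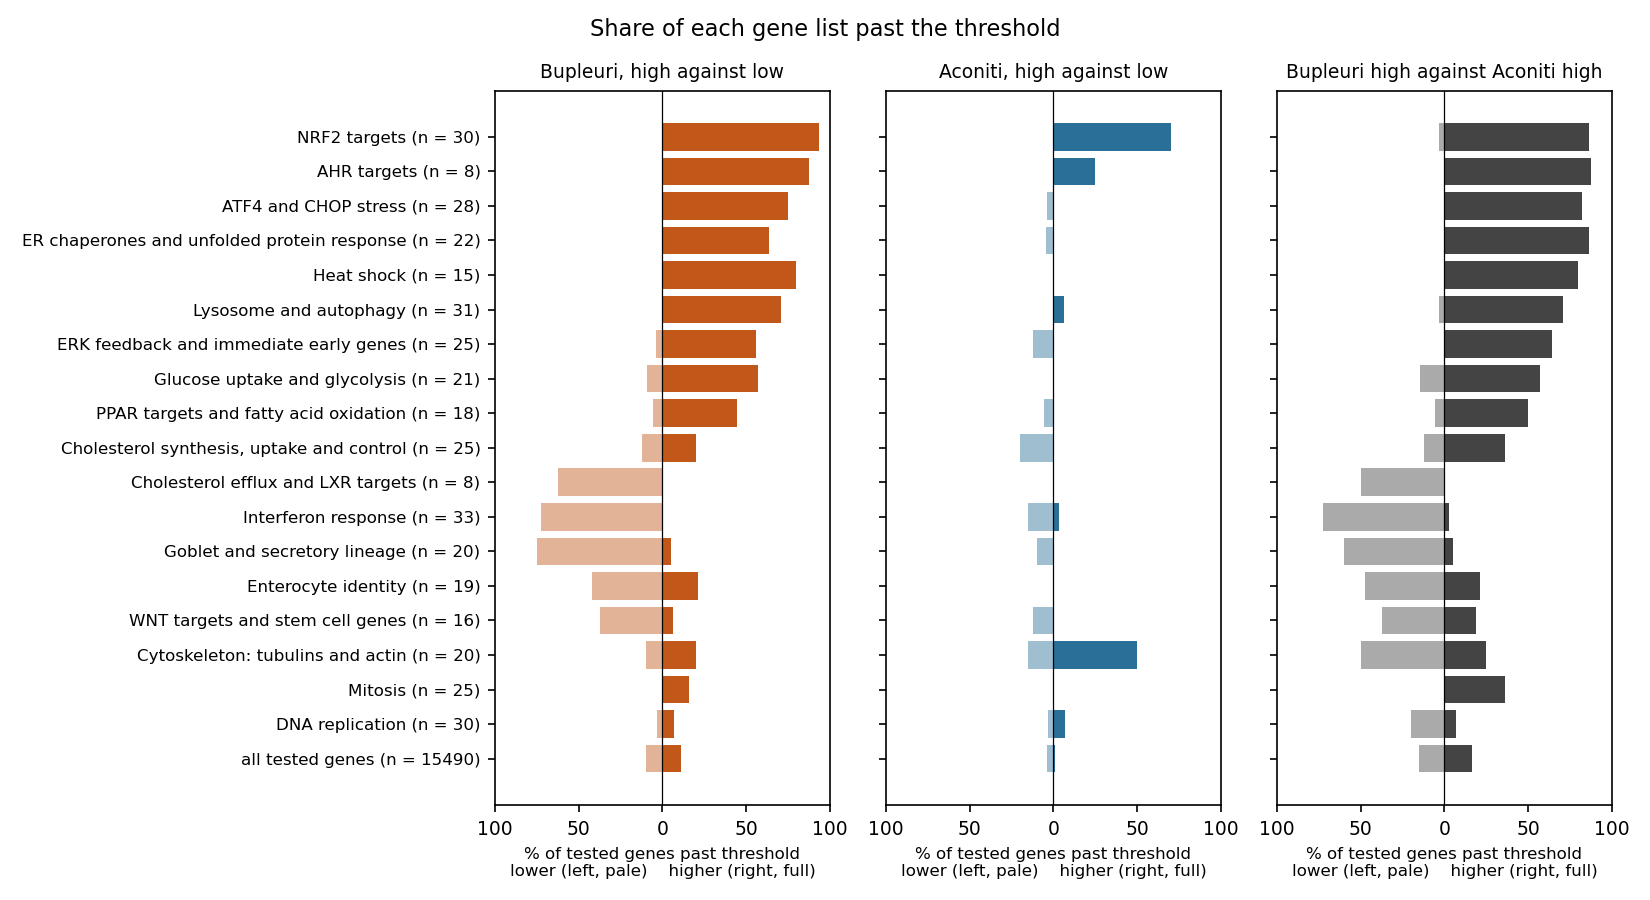
Percentage of the tested genes of each list past the threshold, higher to the right in full colour and lower to the left in pale colour, for Bupleuri high against low dose, Aconiti high against low dose, and Bupleuri against Aconiti at high dose. The bottom row gives all 15490 tested genes. NRF2 targets rise in both extracts, stress and chaperone lists in the Bupleuri panel, and 10 of 20 members of the tubulin and actin list, 9 of them tubulins, in the Aconiti panel.

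Interferon-stimulated genes were lower with Bupleuri at high dose for 24 of 33 and higher for 1, with a median log2 difference of -0.38. With Bupleuri 24 fell and none rose from low to high dose. With Aconiti 5 fell and 1 rose, of which 2 were left without Aconiti high replicate 3 or low replicate 1 and 3 without low replicate 3. The difference between the dose changes passed for 9, all more negative with Bupleuri, against 6.49% of all tested genes. At high dose 14.9% of all were lower with Bupleuri. From low to high dose 9.82% of all fell with Bupleuri, and 3.75% fell and 1.15% rose with Aconiti. MX1, an antiviral GTPase, measured 6.46, 5.36 and 5.4 CPM with high-dose Bupleuri, against 11.6, 11.2 and 10.3 CPM with high-dose Aconiti. IRF9, the DNA-binding subunit of the complex that drives these genes, measured 10.5, 8.55 and 8.5 CPM with Bupleuri, against 16.4, 13.7 and 14 CPM with Aconiti. OAS2, which makes the activator of RNase L, fell with both, by 1.19 ± 0.16 with Bupleuri and 0.57 ± 0.14 with Aconiti on the log2 scale (SE), and those falls were not shown to differ (edgeR adjusted p = 0.061). OASL was the exception, higher with Bupleuri by 0.34 on the log2 scale. The interferon genes were also slightly lower at low dose with Bupleuri, by a median of -0.12 on the log2 scale, with no gene past the threshold.

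Goblet and secretory lineage genes fell with Bupleuri. Of 20 tested, 15 fell and 1 rose over the Bupleuri doses, the median log2 change being -0.49, whereas 2 fell with Aconiti, REG4 and CREB3L1, with a median of -0.09, and 4 were called without vehicle replicate 1. Over all tested genes 9.82% fell and 10.9% rose with Bupleuri, and 3.75% fell with Aconiti. ATOH1, the transcription factor that commits intestinal progenitors to the secretory fate, measured 2.26, 2.21 and 2.37 CPM with high-dose Bupleuri, against 6.36, 5.25 and 5.11 CPM with high-dose Aconiti. The Notch ligand DLL4 measured 3.12, 3.03 and 3.03 CPM with Bupleuri, against 5.82, 5.13 and 5.7 CPM with Aconiti, and TFF3, a goblet cell peptide, 4.29, 4.66 and 4.97 CPM with Bupleuri, against 6.9, 7.69 and 7.19 CPM with Aconiti. KLF4, which also acts in goblet cell maturation, was the member that rose, at 11.8, 11.7 and 11.3 CPM with Bupleuri, against 6.77, 7.56 and 8.05 CPM with Aconiti.

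Cholesterol efflux genes under the liver X receptor fell with Bupleuri, 5 of 8 tested from low to high dose, and none changed with Aconiti in edgeR. Over all tested genes 9.82% fell with Bupleuri and 4.9% changed with Aconiti, so the lack of Aconiti calls was near the share of all. ABCG1, an exporter of cholesterol to lipoproteins, measured 1.63, 1.72 and 1.28 CPM with high-dose Bupleuri, against 3.65, 4.36 and 4.06 CPM with high-dose Aconiti. ABCA1, which loads apolipoprotein A-I, measured 4.29, 3.48 and 3.46 CPM with Bupleuri, against 7.26, 7.05 and 6.36 CPM with Aconiti. The groups did not overlap in either gene. Of 25 genes of cholesterol synthesis and uptake, 9 were higher with Bupleuri at high dose and 3 lower, against 16.6% and 14.9% of all tested genes. Compared with the low dose, 5 rose and 3 fell with Bupleuri, against 10.9% and 9.82% of all. With Aconiti 5 fell, against 3.75% of all, and the count was 1 without Aconiti high replicate 1, 3 without low replicate 2 and 10 without vehicle replicate 1.

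Among genes with a mean of at least 1 on the log2 CPM scale, those that rose with Aconiti only were led by tubulins, the subunits of microtubules, whose mRNA stability is known to be tuned to the amount of free tubulin. TUBA1A (ENSG00000167552, chr12:49184796-49189324) measured 2.03, 1.96 and 2.17 CPM with high-dose Bupleuri and 4.24, 4.31 and 4.48 CPM with high-dose Aconiti. Its low-dose means were 2.01 ± 0.27 CPM with Bupleuri and 1.95 ± 0.35 CPM with Aconiti (SD, n = 3 each), so only the high-dose Aconiti libraries stood apart from these groups. The log2 change from low to high dose was 0.03 ± 0.16 with Bupleuri and 1.16 ± 0.14 with Aconiti (SE), and the difference between them was -1.14 ± 0.21 (edgeR adjusted p = 0.00076).

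The abundant TUBB, a main beta-tubulin (chr6:30720201-30725426), measured 1513, 1418 and 1510 CPM with high-dose Bupleuri, against 1918, 1959 and 1986 CPM with high-dose Aconiti. TUBB4B measured 673, 708 and 703 CPM with Bupleuri, against 886, 926 and 932 CPM with Aconiti, and TUBA4A measured 128, 126 and 137 CPM with Bupleuri, against 190, 197 and 201 CPM with Aconiti. In each of these genes every Aconiti library was above every Bupleuri library. TUBB2A, TUBA1B, TUBB2B and TUBB3 also rose with Aconiti, by 0.60, 0.42, 1.03 and 0.77 on the log2 scale, and TUBA1C rose with both extracts. TUBB6 was the member of the list's 10 tubulins that passed with neither extract. Tubulin genes are near-identical over long stretches, and the authors' counting may split reads among them, and TUBA1A and TUBA1C overlap in the annotation. Of all 20 tested members of the cytoskeleton list, 4 rose and 2 fell with Bupleuri, against 10.9% and 9.82% of all tested genes. The share that fell was thus near that of all genes. With Aconiti 10 rose and 3 fell, against 1.15% and 3.75% of all. Of these 13 calls, 8 were left without Aconiti high replicate 3 or low replicate 3. The falls with Aconiti were in the actins ACTB and ACTG1 and the actin crosslinker ACTN4, and each was under 0.2 on the log2 scale. TUBA1B averaged 2056 ± 34 CPM at high and 1532 ± 55 CPM at low Aconiti, with vehicle between them at 1850 ± 69 CPM (SD, n = 3 each), and vehicle also lay between these doses for TUBA1A, TUBA4A, TUBB, TUBB2A, TUBB2B, TUBB3 and TUBB4B, but not for TUBA1C and TUBB6.

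The falls with Aconiti were concentrated in genes that span long stretches of the genome. LPP, a focal adhesion protein gene of 737 kb (ENSG00000145012, chr3:188153284-188890671), measured 103, 107 and 86.4 CPM with high-dose Bupleuri, against 45.9, 60.8 and 46.5 CPM with high-dose Aconiti. SNX29, a sorting nexin gene of 598 kb, measured 14.1, 15.1 and 13.7 CPM with Bupleuri, against 6.18, 7.82 and 7.19 CPM with Aconiti. In both genes the groups were apart, and the Bupleuri level differed from its own low dose by at most 0.09 on the log2 scale. DIAPH2, a formin gene of 920 kb, averaged 57.8 ± 2.0 CPM with Bupleuri and 30.7 ± 3.9 CPM with Aconiti (SD, n = 3 each), and VPS13B, a lipid transfer protein gene of 864 kb, averaged 40.8 ± 3.7 and 23.9 ± 4.1 CPM in the same order of extracts.

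Genes that fell from low to high Bupleuri had a median span of 32.1 kb and those that rose 31.3 kb. The 580 annotated genes that fell from low to high Aconiti had a median span of 226 kb, and the 233 that fell with Aconiti only 289 kb, against 25.1 kb over the 15399 tested genes with coordinates. Among 228 genes over 400 kb, 18% fell with Bupleuri and 48.2% with Aconiti, with median log2 changes of -0.09 and -0.40. Among 4420 genes up to 10 kb, 6.4% fell with Bupleuri and 0.543% with Aconiti. Gene span was examined after the values of these genes had been seen.

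The shift of the long genes was present in all 3 high-dose Aconiti libraries. Against the mean of its low-dose libraries, the median log2 level of genes over 400 kb was -0.08, -0.08 and -0.12 in the high-dose Bupleuri libraries and -0.45, -0.31 and -0.42 in the high-dose Aconiti libraries. The lowest and highest Aconiti libraries differed, yet all 3 were below all 3 Bupleuri libraries. At medium dose the values were between -0.03 and 0.00 with Bupleuri and -0.10, -0.04 and -0.08 with Aconiti. Genes up to 10 kb stayed between -0.03 and 0.04 in the high-dose libraries of both extracts. The share of genes over 400 kb that fell with Aconiti was 43.2% without Aconiti high replicate 1 and also 43.2% without replicate 3.

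**Figure D4:**
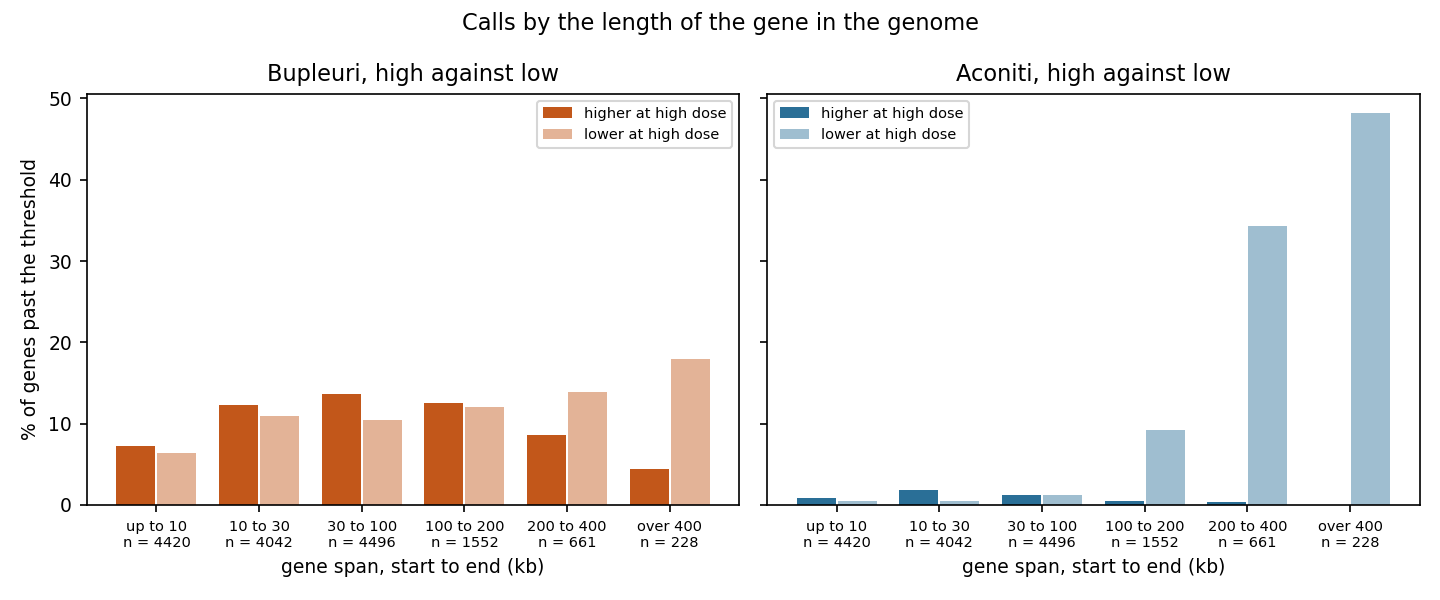
Percentage of genes past the threshold from low to high dose (y axis), higher in full colour and lower in pale colour, by the distance from the start to the end of the gene in kb (x axis, with the number of genes), for Bupleuri on the left and Aconiti on the right. The lower calls with Bupleuri run from 6.4% up to 10 kb to 18% over 400 kb, and those with Aconiti from 0.543% to 48.2%. The cause was not tested.

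Among the 101 genes that moved in opposite directions, 79 rose with Bupleuri and fell with Aconiti (0.51% of tested genes), and 22 did the reverse (0.142%). All 101 also differed between the extracts at high dose and in their dose change, which largely follows from the rule of the class and is no separate evidence. AQP3, an aquaglyceroporin of the colon surface (ENSG00000165272, chr9:33441154-33447633), measured 166, 181 and 166 CPM with high-dose Bupleuri, against 76.6, 79.9 and 78.3 CPM with high-dose Aconiti. At low dose it averaged 93.0 ± 4.2 CPM with Bupleuri and 95.7 ± 1.5 CPM with Aconiti (SD, n = 3 each), so the extracts parted from a shared level. Its log2 dose change was 0.88 ± 0.05 with Bupleuri and -0.29 ± 0.05 with Aconiti (SE).

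PKIB, an inhibitor of protein kinase A, measured 31, 29.6 and 34.9 CPM with high-dose Bupleuri, against 10.1, 11.1 and 11.4 CPM with high-dose Aconiti. UST and ADAM19, a sulfotransferase and a metalloprotease, had differences between the dose changes of 1.09 and 1.03 on the log2 scale. DDIT4, an ATF4 target that restrains mTORC1, averaged 35.4 ± 2.6 CPM with Bupleuri and 19.0 ± 0.95 CPM with Aconiti (SD, n = 3 each).

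In the reverse direction, CCN2, a matricellular protein and target of YAP (chr6:131948176-131951373), measured 2.39, 2.37 and 2.06 CPM with high-dose Bupleuri, against 5.91, 4.44 and 5.93 CPM with high-dose Aconiti. ALDH1A1, a retinaldehyde dehydrogenase, measured 697, 699 and 733 CPM with Bupleuri, against 1033, 1043 and 1028 CPM with Aconiti, around low-dose means of 845 ± 18 and 841 ± 23 CPM (SD, n = 3 each). AQP1, another water channel, and the Wnt receptor FZD4 had log2 dose changes of -0.55 and -0.61 with Bupleuri and of 0.50 and 0.36 with Aconiti. SLFN5 also fell with Bupleuri and rose with Aconiti, and its high-dose Bupleuri mean of 19.1 ± 0.94 CPM lay near the vehicle mean of 20.7 ± 1.8 CPM (SD, n = 3 each). The number of genes in opposite directions was sensitive to single libraries, with 46, 49, 57, 59, 63 and 66 left without Aconiti high replicate 1, Aconiti high replicate 3, Aconiti low replicates 1, 2 and 3, and Bupleuri high replicate 1, and 195 without vehicle replicate 1.

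At the medium dose 12 genes differed between the extracts (0.0775%), and 864 had an unadjusted p under 0.05. Of these, 4 were higher with Bupleuri (0.0258%), EREG, CYP1B1, CD55 and AKR1B10, and 8 lower (0.0516%), among them IDI1, SCD, ACSS2, LPIN1, FDPS, INSIG1 and TUBB. Among the 12, 9 also passed at high dose with the same sign. CD55, a complement regulator, had a log2 difference of 0.21 ± 0.04 (SE) at medium dose and 0.94 at high dose, and AKR1B10 of 0.29 ± 0.05 and 1.21. The lipid synthesis genes behaved otherwise: INSIG1, a brake on sterol synthesis, differed by -0.23 ± 0.04 (SE) at medium dose and by 0.03 at high dose, and IDI1 by -0.19 ± 0.04 and 0.07. LPIN1, a phosphatidate phosphatase, changed sign, with -0.33 ± 0.06 (SE) at medium dose and 0.18 at high dose. Over the 4875 genes called at high dose, 74.8% had the same sign at medium dose, against 62.6% of all tested genes. The medium-dose calls rested on each of the 6 libraries, since leaving out any of them left 0 to 5 genes, while 26 passed without vehicle replicate 1.

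**Figure D5:**
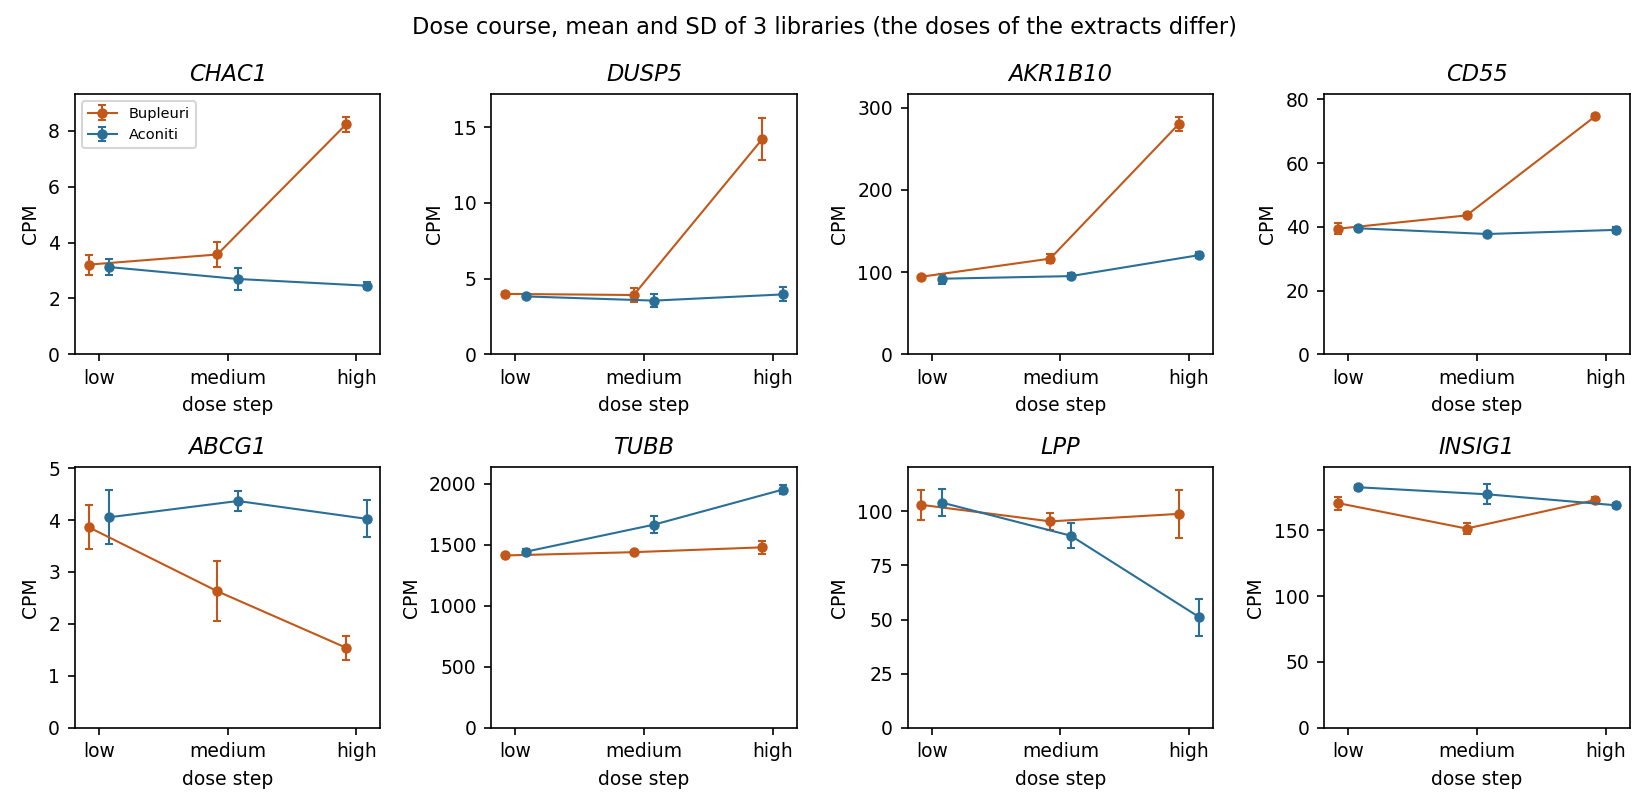
Mean level in CPM (y axis, from 0) at low, medium and high dose of Bupleuri (orange) and Aconiti (blue) for 8 genes, with the SD of 3 libraries. The steps differ in concentration, 12.4, 62 and 310 µg/mL for Bupleuri and 20, 100 and 500 µg/mL for Aconiti. CHAC1, DUSP5 and CD55 rise with Bupleuri mainly between medium and high dose, ABCG1 falls with Bupleuri over the 3 doses, and TUBB and LPP part with Aconiti.

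Against vehicle, 6146 genes differed with high-dose Bupleuri (39.7%) and 4735 with high-dose Aconiti (30.6%). These comparisons share the vehicle libraries, which lie in another library set, so that set and extract cannot be told apart in them. Without vehicle replicate 1 the counts were 5012 and 3629. Of all tested genes, 19% were higher and 20.7% lower with Bupleuri, and 13.5% higher and 17% lower with Aconiti. Of the 28 genes of the ATF4 and CHOP list, 22 were higher and 2 lower with Bupleuri, and 4 higher and 8 lower with Aconiti. Without vehicle replicate 1 these were 22 and 2, and 4 and 6. Of the 33 interferon genes, 1 was higher and 21 were lower with Bupleuri, and 13 were lower without vehicle replicate 1. With Aconiti 6 were higher and 1 was lower, also without that library, and 11 in all were called without vehicle replicate 3. The share higher with Aconiti was near that of all genes. Of the 25 mitosis genes, 1 was higher and 13 were lower with Bupleuri, and none was higher and 17 were lower with Aconiti, with 12 and 20 lower without vehicle replicate 1. Within the set, from low to high dose, 4 rose with Bupleuri, against 10.9% of all tested genes. That count was 0 with all 60 libraries, 1 without Bupleuri high replicate 3 and 2 without Bupleuri low replicate 1. With Aconiti none changed in the main edgeR fit, against 4.9% of all tested genes. There 1 did without vehicle replicate 1 and 4 did with replicate number in the model, and DESeq2 called 1.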

How the data were processed

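Expected counts per gene from the authors' RSEM run were deposited as 1 table for the series, whose columns also hold other quantities; 210 of its 270 columns were not used. Per the submitters' processing notes, reads were checked with FastQC 0.11.9, trimmed with Trim Galore 0.6.5, aligned to GRCh38 with STAR 2.7.3a and counted with RSEM 1.3.3. The annotation and the strand setting of the counting are not given in the sources used here. Libraries were directional and read from both ends, per the labels' protocols.

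Expected counts were rounded to whole numbers. The fit took 21 libraries, the 18 of set 13 and 3 vehicle libraries, as 7 groups. A gene entered the test, 15490 in all, where 3 or more libraries reached 0.5 CPM. These genes were tested with edgeR 4.0.16 (R 4.3.3) by the quasi-likelihood test after TMM scaling, with 14 residual degrees of freedom and Benjamini-Hochberg adjusted p under 0.05. Printed CPM are TMM-scaled, and log2 changes are those of the edgeR fit. A prior count of 2 was used for the log2 levels per library, which gave the gene-span medians per library and the replicate correlations. The procedure was tested on simulated data. DESeq2 1.42.0, other scaling, filters and sample sets, and each library left out were alternatives. Gene coordinates are from GENCODE 29 (GRCh38), and promoters from RefSeq.

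Named genes were those with a mean log2 CPM of at least 1 that had the 10 largest high-dose rises and falls, the 5 largest in each direction of each class, and up to 4 per list. EREG, IDI1, ATF6, SPRY2 and some other members outside this rule were named after their values were seen. Some genes that the rule names are not reported here. The comparison, its lists and its members were chosen with earlier results of these data known.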

Additional observations from a re-analysis of the deposited data

Results flagged for a closer look

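Genes were singled out where the change from low to high dose differed between the extracts by the interaction term of the edgeR fit, given here as the Bupleuri change minus the Aconiti change on the log2 scale. In all, 2322 genes passed. Groups of 3 libraries are too small for a test of single outlying libraries.

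Among the genes with the largest rises with Bupleuri, this difference was 1.77 for DUSP5, 1.70 for CHAC1, 1.61 for PKIB and 1.60 for SLC38A4. It was 1.54 for GDF15, 1.5 for MUC17, 1.44 for IGFL2-AS1, 1.42 for UCA1, 1.39 for ADM2 and 1.29 for AHNAK2. The membrane mucin MUC17 measured 19.5, 17.4 and 15.6 CPM with high-dose Bupleuri, against 6.77, 6.62 and 6.23 CPM with high-dose Aconiti.

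Among the falls it was -2.0 for SLC5A9, -1.73 for NOX1, -1.62 for BCL2L14, -1.58 for CD200, -1.58 for SPEG and -1.49 for CGNL1. It was -1.46 for ST6GALNAC1, -1.43 for ALG1L1P, -1.32 for ABCG1, -1.17 for NEURL1 and -1.09 for METTL7A.

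Among genes moved by Aconiti only, the tubulins TUBA1A, TUBA4A, TUBB2A, TUBB4B and TUBB had values of -1.14, -0.56, -0.39, -0.39 and -0.37. The long genes SNX29, LPP, DIAPH2 and VPS13B had 1.00, 0.97, 0.84 and 0.77.

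Among genes that moved in opposite directions, AQP3 had 1.17, UST 1.09 and ADAM19 1.03. CCN2, AQP1, FZD4, WDR31 and SLFN5 had -1.07, -1.05, -0.97, -0.79 and -0.76.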

How the results depend on the processing

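With all 60 libraries in the fit, 2071 genes changed from low to high Bupleuri, 434 from low to high Aconiti and 1365 by the difference between them. Aconiti against vehicle then gave 2774, the medium dose 4, and the classes 951 (Bupleuri only), 175 (Aconiti only), 36 (opposite) and 104 (same direction). With only the 18 libraries of set 13, chosen after seeing the data, the Aconiti dose change gave 1156, the medium dose 26, and Aconiti only 425, opposite 196 and same direction 290. The DESeq2 Wald test called 29 genes at medium and 1 at low dose. With no filter on low counts these were 120 and 53. With only the 6 high-dose libraries 5438 genes differed, and with a minimum of 1.5-fold 860. Of called high-dose genes, 52.6% were higher with Bupleuri under TMM and 58.4% under the DESeq2 Wald test.

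Libraries with the same replicate number were weakly alike at most, and the main test did not use the number. Deviations of same-numbered high-dose libraries correlated at 0.00, 0.06 and 0.11 across genes, and 2 of 3 numbers correlated best with their own. Between high and low Bupleuri the values were 0.01, 0.09 and 0.15, and between high and low Aconiti 0.00, -0.01 and -0.01. The replicate block was fitted on the 18 libraries of set 13, without vehicle. With it 5842 genes differed at high dose, 4196 with Bupleuri dose, 1357 with Aconiti dose, 3303 by their difference and 38 at medium dose. Its classes held 490 (Aconiti only), 245 (opposite) and 339 (same direction). In the same order, the 18 libraries without the block gave 5557, 3901, 1156, 3024 and 26, and classes of 425, 196 and 290.

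Leaving out 1 library at a time gave 3836 to 5551 genes at high dose, 2421 to 3901 for Bupleuri dose, 419 to 1157 for Aconiti dose, 1824 to 2997 for their difference, 0 to 26 at medium and 0 to 0 at low dose. Against vehicle the ranges were 4958 to 6497 for Bupleuri and 3456 to 5299 for Aconiti. Classes ran from 1213 to 1953, 154 to 423, 46 to 195 and 110 to 286. The same-direction class held 110 genes without Aconiti high replicate 3 and 286 without vehicle replicate 1, a run added after seeing the data. The causes were not tested. None of the 145 named genes changed sign at high dose, and 13 lost the call under at least 1 alternative. Of the 33 lists, 9 moved in their high-dose count by over 1.5 times, among them mitosis and NF-kappaB. Those of the NRF2, ATF4, chaperone, lysosome, ERK, interferon, goblet and cytoskeleton lists did not, nor did their Bupleuri dose counts, except cytoskeleton (6, and 10 with the replicate block). Their Aconiti dose counts all moved under at least 1 setting, NRF2 only with all 60 libraries (13, against 21). Depth limits genes near 0.15 CPM, and p-values cover these libraries only.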

Other observations

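Differentiation genes of the intestinal epithelium were split at high dose. Of 19 tested enterocyte genes, 4 were higher with Bupleuri and 9 lower, against 16.6% and 14.9% of all tested genes. None changed from low to high Aconiti in edgeR, where 1 did without Aconiti low replicate 3. As 4.9% of all tested genes changed there, the lack of calls was near the share of all. The adhesion gene CEACAM6 measured 65.2, 58.8 and 62 CPM with Bupleuri, against 32.9, 30.4 and 29.8 CPM with Aconiti, and may share reads with its paralog CEACAM5, which was also higher by 1.15 on the log2 scale. The keratin KRT20 measured 428, 410 and 454 CPM with Bupleuri, against 256, 262 and 253 CPM with Aconiti. VIL1, which bundles actin in microvilli, went the other way, with 123, 127 and 128 CPM with Bupleuri, against 199, 196 and 192 CPM with Aconiti. The caudal homeobox genes CDX1 and CDX2 were lower with Bupleuri by log2 differences of -0.65 and -0.40.

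Among Wnt targets and stem cell genes, 6 of 16 were lower with Bupleuri, against 14.9% of all tested genes, and 3 were higher, a share near the 16.6% of all. ASCL2, a stem cell factor, had 1.08, 1.68 and 1.09 CPM with Bupleuri, against 2.8, 2.78 and 2.64 CPM with Aconiti. Of 19 CDK inhibitors and p53 targets, 4 were higher, near the share of all genes, and 6 lower, 10 calls of which 6 were left without Aconiti high replicate 2. Among them were CDKN1A, which encodes p21, with a log2 difference of 0.83, and TP53INP1 with -0.87. Of 20 NF-kappaB targets and chemokines, 5 were higher, led by CCL20 at a log2 difference of 1.34, against 16.6% of all tested genes. The count was 3 without Aconiti high replicate 1 or 2, without Bupleuri high replicate 1 or 2, and with all 60 libraries. Between the Aconiti doses BIRC3 alone passed, and 2 members did without Aconiti low replicate 2 or without vehicle replicate 1. There 4.9% of all tested genes changed, so the list was near that share.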
